A study of Mus musculus with 6 samples.

Results

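The soluble lysosomal hydrolases, the enzymes that break down proteins, sugar chains, sulfated glycans and lipids inside lysosomes, were examined in mdx myoblasts given PSB-KD107 or vehicle. The 40 genes were chosen by function, as 14 proteases, 13 glycosidases, 5 sulfatases and 8 lipid hydrolases or activator proteins, with earlier results of this same contrast known. Their values between the groups are therefore given as a description, and no test is made of the list. All 40 symbols were found among the 47069 genes of the count table, and 38 passed the filter on low counts, which kept 14165 genes. The cells were muscle stem cells, or myoblasts, purified by flow cytometry from muscle of mdx mice, which lack dystrophin and model Duchenne muscular dystrophy. Antibodies to integrin β1 and integrin α7 selected them, and antibodies to Sca-1, CD45, CD31 and CD11b removed other cells. The study's methods describe a growth medium with serum and FGF2, and a low-serum medium for differentiation. They do not name the one used for the sequenced cultures. Vehicle (diluted DMSO) was given to 3 cultures and PSB-KD107 at 10 µM to 3. PSB-KD107 is a synthetic small molecule that activates Gpr18, a receptor for a pro-resolving lipid mediator. The sample records give an exposure of 2 days and the study's methods an overnight one. The methods state that the cells came from 3 different mice but do not say which libraries share a mouse, so p-values measure the spread between these libraries.

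Lysosomal hydrolases are made in the endoplasmic reticulum, tagged with mannose 6-phosphate in the Golgi and carried to lysosomes by receptors, where the acid pH and proteolytic trimming activate them. Cathepsins are the main proteases of the compartment. Glycosidases remove sugars from glycoproteins, glycolipids and glycosaminoglycans one at a time, and sulfatases remove the sulfate groups that would stop them. Lipid hydrolases often need small activator proteins that lift the lipid out of the membrane. Loss of many of these enzymes singly causes a lysosomal storage disease, and loss of Gaa, as in Pompe disease, damages skeletal muscle.

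RNA was measured as poly(A)-selected RNA-seq counts per gene, and libraries held between 30917613 and 48756794 counts. A floor of 3 counts corresponded to between 0.0596 and 0.0962 CPM (counts scaled to a common library total by the TMM method), a limit that covers counting error only. In each group the libraries carry the numbers 1, 2 and 4. Vehicle libraries 2 and 4 were closest to each other (Pearson r = 0.997 of log2 CPM, across 14165 genes, which are not independent), and PSB-KD107 library 2 resembled both (r = 0.991 and 0.989). Vehicle library 1 and PSB-KD107 library 1 also resembled each other (r = 0.985), and PSB-KD107 library 4 stood apart from all others (r from 0.946 to 0.959). Differences within a group were beyond sampling noise in every pair of libraries, so none was counted as a repeat of another.

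The labelled cell type was checked against marker genes. Itga7, the selection marker integrin α7, lay between 799 and 1123 CPM, and Myod1, a transcription factor of the muscle lineage, between 399 and 1060.0 CPM. Genes of differentiating cells were also high with vehicle, with means of 17793 CPM for Myh3, 6035 for Acta1 and 2134 for Myog. The vehicle mean of the stem cell marker Pax7 was 59.5 CPM, so the cultures held RNA of differentiating cells. Macrophages are rich in cathepsins, so their genes were read as well. Of 15 macrophage and leukocyte markers, 5 (Adgre1, C1qa, C1qb, C1qc and Tyrobp) had 0 counts in all 6 libraries. A count of 0 allows at most the floor of 3 counts per library. Only 3 of the 15 passed the filter, Itgam, Mrc1 and Laptm5, and the groups overlapped for each. Itgam, the gene of the sort marker CD11b, lay at 4.24, 2.72 and 1.92 CPM in vehicle libraries 1, 2 and 4. In PSB-KD107 libraries 1, 2 and 4 it lay at 2.64, 1.25 and 0.385 CPM. Laptm5 was higher on average with PSB-KD107 (0.808 CPM, against 0.385 with vehicle), and Mrc1 hardly differed (1.31 against 1.27 CPM). The 15 summed to between 4.0 and 6.0 CPM with vehicle and between 3.69 and 4.91 CPM with PSB-KD107. Endothelial markers (7 genes) summed to between 0.310 and 1.56 CPM with vehicle and between 0.385 and 1.21 CPM with PSB-KD107, with Tie1 and Emcn at 0 counts throughout. Fibroblast markers (8 genes) summed to between 153 and 401 CPM with vehicle and between 64.7 and 327 CPM with PSB-KD107. Col3a1 made up nearly all of the fibroblast sum, and Lum had 0 counts. Ly6a, the gene of the sort marker Sca-1, had 8.36 CPM in PSB-KD107 library 4 and between 0.155 and 1.29 CPM in the other 5 libraries. Some muscle markers moved with the treatment. Pax7, the marker of muscle stem cells, had 68.8, 49.9 and 60.0 CPM in vehicle libraries 1, 2 and 4. In the PSB-KD107 libraries it had 34.0, 26.8 and 35.1 CPM. Myog and Myh3, genes of differentiating cells, had log2 fold changes of -0.49 and -0.44. Pax7, Myog and Myh3 were lower in every PSB-KD107 library than in every vehicle library, as were 6.59% of all genes tested. At an adjusted p under 0.05, DESeq2 called Pax7 and Myh3 lower but not Myog, against 0.716% of all genes. Other markers went the other way or hardly differed, with 0.73 (standard error 0.92) for Myf5, 0.30 for Itgb1, 0.33 for Ckm and 0.007 for Acta1. For Itgb1, Ckm and Acta1, PSB-KD107 library 4 was the highest of all 6 libraries. Ckm had 287, 340 and 425 CPM with vehicle and 222, 281 and 818 CPM with PSB-KD107. Myod1, Cd82 and Cdh15 were lower on average, with log2 fold changes of -0.59, -1.29 and -0.42 and standard errors of 0.35, 0.82 and 0.40. In all, 3 of 9 tested myoblast markers and 2 of 6 tested markers of differentiating cells were above 0. The part of these shifts in the results on lysosomal genes was not tested. In RNA from bulk cultures, fewer cells of a kind and less RNA per cell cannot be told apart.

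Most lysosomal hydrolase genes were higher in the cells given PSB-KD107, and none of them passed an adjusted threshold in the main test. In the quasi-likelihood test of edgeR, 0 of the 38 tested members had an adjusted p under 0.05, and so had 0% of all genes tested. Before adjustment, p was under 0.05 for 17 members on the higher side (44.7% of the 38) and for 0 on the lower, against 6.47% and 2.93% of all genes tested. DESeq2 called 13 members, all higher, against 2.25% of all genes called higher and 0.716% called lower. Its count was 5 without vehicle library 2 (Ctsa, Ctsd, Scpep1, Hexa and Asah1), 6 without vehicle library 4 and 8 without PSB-KD107 library 1. Over all genes, these fits called 178 of 13707, 160 of 14632 and 283 of 13119. In 20 members the 3 PSB-KD107 libraries all lay above the 3 vehicle libraries, against 9.2% of all genes tested, and in 0 members did they all lie below, against 6.59%. Fitted log2 fold changes were above 0 in 31 members and below 0 in 7. Their median was 0.52, and the median of all genes tested was -0.0007. As the members were listed with this contrast known, these shares describe the list and do not test it.

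The summed level of the 40 genes was 3151, 3314 and 3332 CPM in vehicle libraries 1, 2 and 4 and 5005, 4796 and 4738 CPM in PSB-KD107 libraries 1, 2 and 4. The sums did not overlap, and the ratio of the group means was 1.48. PSB-KD107 library 1 held the highest value of 15 members, library 2 of 9 and library 4 of 8, whereas each vehicle library held the highest value of 2. As shares of the 38 tested members, these were 39.5%, 23.7% and 21.1% for the PSB-KD107 libraries, against 16.4%, 13.4% and 25.7% of all genes tested, so that library 4 was the highest in a smaller share of members than of all genes.

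Levels between genes were compared per length, as CPM per kilobase of annotated exon (FPKM). Ctsd, which encodes the aspartic protease cathepsin D (ENSMUSG00000007891, chromosome 7 from 142375911 to 142388038, GRCm38), was the highest at 275 ± 23.8 FPKM with vehicle (mean ± SD, n = 3). Psap, the precursor of the 4 saposins that activate sphingolipid hydrolases, followed at 248 ± 15.1 FPKM, and the ranges of these top genes overlapped. After a wide gap came Ctsz (63.6 ± 3.28 FPKM), the asparaginyl protease Lgmn (57.5 ± 7.65 FPKM) and Gaa, the glucosidase that degrades glycogen (48.1 ± 6.40 FPKM). Asah1, Hexa, Ctsl, Ctsb and Smpd1 completed the 10 highest, with vehicle means from 38.8 down to 27.1 FPKM. Each gene overlapped the next in this order, other than Psap and Ctsz. With the longest transcript as the length in place of all exons, the same 10 genes were the highest, in another order from the third place on. At the other end, Ctsk and Ctss, neighbouring genes on chromosome 3 for cathepsins of osteoclasts and of antigen-presenting cells, did not pass the filter. Ctsk had between 3 and 8 counts per library. Ctss had 0 or 1 count in each, at or under the floor of 3 counts, so that no difference could be read from it.

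**Figure D1:**
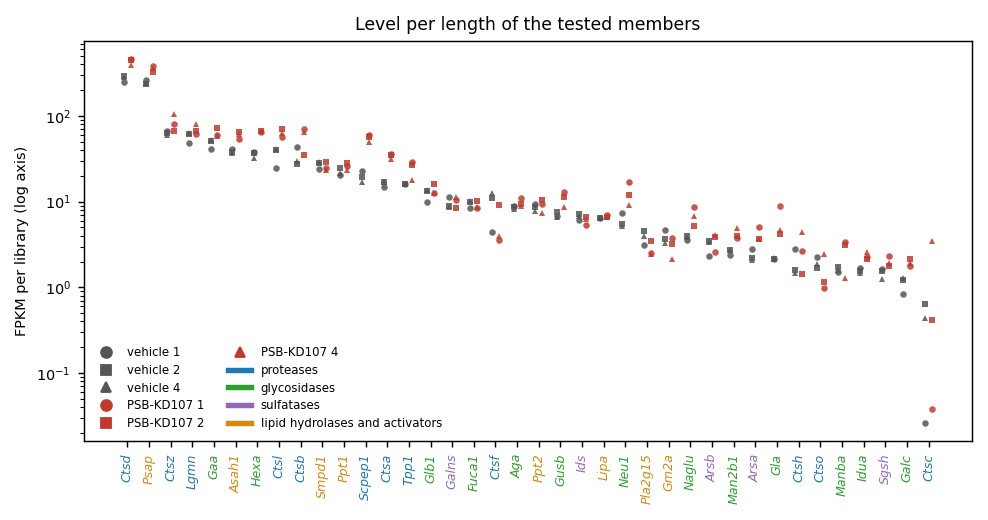
Level of the 38 tested genes in each library, in FPKM on a log axis, ordered by the vehicle mean; grey points are the 3 vehicle libraries, red points the 3 PSB-KD107 libraries, and label colours give the class. Ctsd and Psap stand above all others in both groups, and the red points lie above the grey ones for Scpep1, Ctsa, Hexa, Neu1 and Gla.

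Among the proteases, the serine and aspartic enzymes were higher in every PSB-KD107 library than in every vehicle library, as were 9.2% of all genes tested. Scpep1, a serine carboxypeptidase (ENSMUSG00000000278, chromosome 11 from 88924020 to 88955465), had 48.4, 40.7 and 35.9 CPM in vehicle libraries 1, 2 and 4 and 125, 119 and 106 CPM in PSB-KD107 libraries 1, 2 and 4. All treated libraries exceeded the highest vehicle library, with a ratio of means of 2.80 and a fitted log2 fold change of 1.49 ± 0.14 (value ± standard error, SE). Ctsa, a carboxypeptidase of the same family that also shields other lysosomal enzymes from breakdown (ENSMUSG00000017760, chromosome 2 from 164832873 to 164841032), had 69.8, 81.1 and 81.1 CPM with vehicle and 171, 166 and 149 CPM with PSB-KD107. The fit gave a log2 fold change of 1.07 ± 0.11 (SE). These related carboxypeptidases were thus both higher, and DESeq2 called both in each of 6 fits that left out 1 library.

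Ctsd had 583, 680.4 and 678.5 CPM with vehicle and 1089.9, 1065 and 929 CPM with PSB-KD107, a log2 fold change of 0.67 ± 0.12 (SE). The lowest treated library stayed above the highest vehicle library. Tpp1, a tripeptidyl peptidase that trims short peptides from the end of proteins (chromosome 7 from 105744811 to 105752235), had 82.4, 82.7 and 82.5 CPM with vehicle, a narrow range, and 151, 140.1 and 93.6 CPM with PSB-KD107. Here PSB-KD107 library 4 lay close to vehicle, and the log2 fold change of 0.64 ± 0.18 (SE) was 0.82 without it. Over these 4 genes the median log2 fold change was 0.87.

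The cysteine proteases of the papain family were less uniform. Of 9 genes, 7 were tested, and 5 had a log2 fold change above 0. In 1 of the 7, Ctsl, the groups did not overlap, against 9.2% of all genes tested on the higher side. Ctsl, which encodes cathepsin L (chromosome 13 from 64359337 to 64370890), had 162, 264 and 265 CPM with vehicle and 367, 458 and 412 CPM with PSB-KD107. The fitted log2 fold change was 0.84 ± 0.22 (SE), with vehicle library 1 the lowest of all. Ctsb, for cathepsin B, the other abundant member (chromosome 14 from 63122462 to 63145923), had 265, 168 and 183 CPM with vehicle and 431, 210.1 and 391.7 CPM with PSB-KD107. Its groups overlapped, because vehicle library 1 was above PSB-KD107 library 2, and its log2 fold change was 0.75 ± 0.31 (SE). Cathepsin B and cathepsin L thus differed in which vehicle library was high, and both were higher in PSB-KD107 library 1 than in vehicle library 1 and in PSB-KD107 library 2 than in the vehicle libraries 2 and 4 it resembles.

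Ctsc, for dipeptidyl peptidase 1, which activates granule proteases of immune cells, had the largest fitted change of the 38 genes and the least stable. It had 0.153, 3.72 and 2.54 CPM with vehicle and 0.219, 2.41 and 20.4 CPM with PSB-KD107. Only PSB-KD107 library 4 was high, and the log2 fold change was 1.84 ± 1.61 (SE) with this library and -0.72 without it. Ctsh, for the aminopeptidase cathepsin H, had 12.7, 7.22 and 6.58 CPM with vehicle and 11.9, 6.42 and 19.7 CPM with PSB-KD107, so that again only PSB-KD107 library 4 exceeded the highest vehicle library. Its log2 fold change of 0.52 ± 0.46 (SE) was 0.05 without that library. The same library had the highest Ly6a, and the part of this in Ctsc and Ctsh was not tested.

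Ctsz, for the carboxypeptidase cathepsin Z, had 96.6, 91.4 and 87.1 CPM with vehicle and 116, 95.3 and 152 CPM with PSB-KD107, a log2 fold change of 0.40 ± 0.18 (SE), or 0.21 without PSB-KD107 library 4. Lgmn, for legumain, which cuts after asparagine and activates other cathepsins, had 113, 142 and 146 CPM with vehicle and 143, 154 and 189 CPM with PSB-KD107, and its log2 fold change was 0.28 ± 0.15 (SE), or 0.15 without PSB-KD107 library 4 and 0.16 without vehicle library 1. The groups overlapped for both genes, and library 4 was the highest for both.

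Ctsf and Ctso were the proteases with a lower mean after PSB-KD107. Ctsf, for cathepsin F, had 22.2, 55.0 and 64.2 CPM with vehicle and 18.2, 45.9 and 20.2 CPM with PSB-KD107. Its libraries fell into low values (vehicle 1, PSB-KD107 1 and 4) and high values (vehicle 2 and 4, PSB-KD107 2), and the log2 fold change was -0.75 ± 0.51 (SE). It ranged from -0.46 without vehicle library 4 to -1.30 without PSB-KD107 library 2, and was -0.27 on the libraries numbered 1 and 2 alone. Ctso, for cathepsin O, had 11.6, 8.53 and 9.65 CPM with vehicle and 5.11, 5.87 and 12.4 CPM with PSB-KD107. Its groups overlapped because PSB-KD107 library 4 was the highest of all 6, and its log2 fold change was -0.35 ± 0.37 (SE). Without that library DESeq2 called Ctso, on the lower side, among 674 of 13246 genes.

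**Figure D2:**
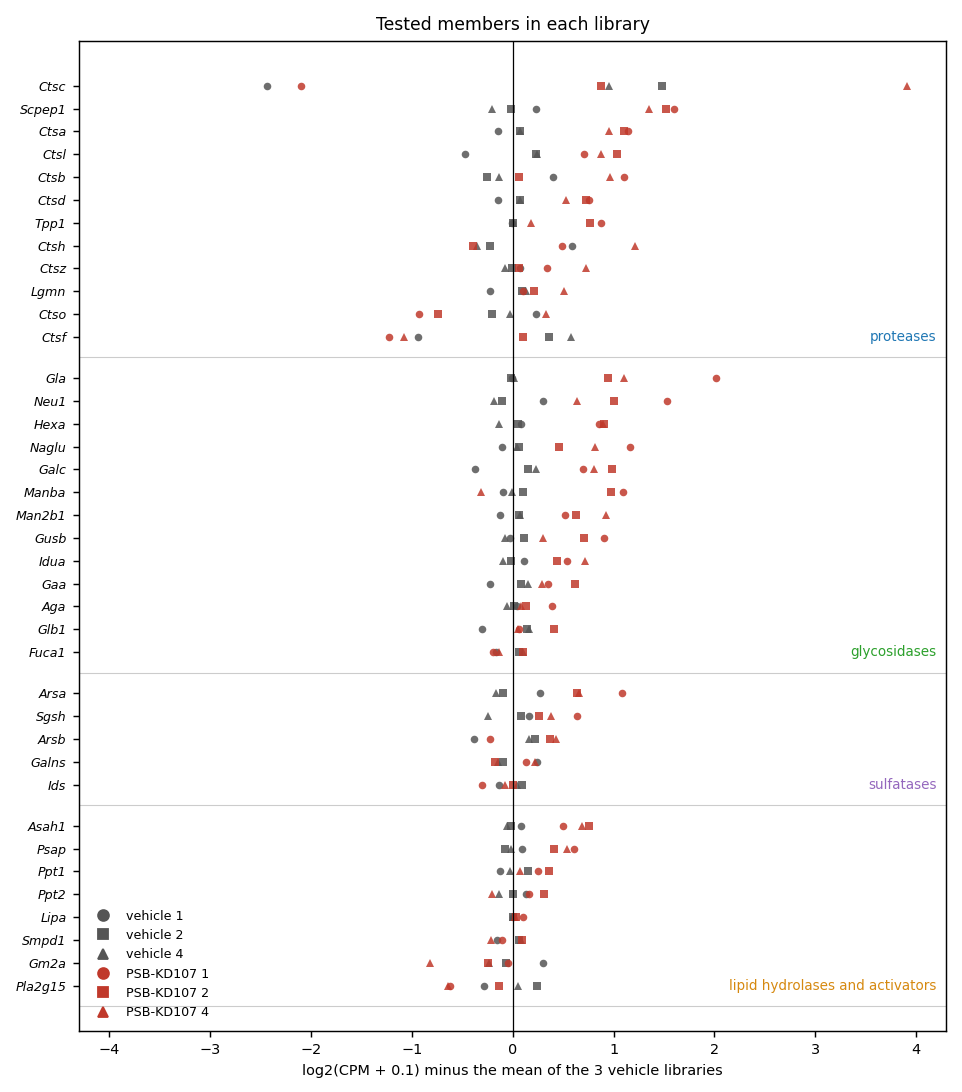
Level of each tested gene in each library, as log2(CPM + 0.1) minus the mean of the 3 vehicle libraries, by class and ordered by fold change; grey symbols are vehicle, red symbols PSB-KD107, and the shape gives the library number. All 3 red symbols lie to the right of all grey ones in 20 of 38 genes, against 9.2% of all genes tested, and Ctsc spans the widest range.

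Nearly all glycosidases were higher on average in the treated cells. Of 13 genes, 12 had a log2 fold change above 0, and the median was 0.70. The groups did not overlap in 10, all in the higher direction, against 9.2% of all genes tested. Gla, the α-galactosidase that removes the end galactose of globotriaosylceramide (ENSMUSG00000031266, chromosome X from 134588149 to 134601125), had 7.09, 7.05 and 7.20 CPM with vehicle and 29.1, 13.8 and 15.4 CPM with PSB-KD107. Vehicle values were nearly equal, PSB-KD107 library 1 was the highest, and the log2 fold change was 1.45 ± 0.31 (SE), or 1.02 without that library. Neu1, the sialidase of the lysosome (chromosome 17 from 34931253 to 34935953), had 27.3, 20.5 and 19.4 CPM with vehicle and 64.2, 44.7 and 34.4 CPM with PSB-KD107. It did not overlap either, and its log2 fold change was 1.09 ± 0.26 (SE).

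Hexa, for the α subunit of β-hexosaminidase, which degrades the ganglioside GM2 (ENSMUSG00000025232, chromosome 9 from 59539540 to 59565109), had 75.9, 74.3 and 65.4 CPM with vehicle and 130.2, 135 and 134 CPM with PSB-KD107. The treated libraries were within a few CPM of each other, and the log2 fold change of 0.89 ± 0.09 had the smallest SE among the glycosidases. Naglu, which removes N-acetylglucosamine from heparan sulfate, had 9.41, 10.6 and 10.4 CPM with vehicle and 22.8, 13.9 and 17.9 CPM with PSB-KD107, a log2 fold change of 0.85 ± 0.21 (SE). Galc, the galactosidase of galactosylceramide, had 12.5, 18.04 and 19.0 CPM with vehicle and 26.4, 32.2 and 28.5 CPM with PSB-KD107. Between the groups the log2 fold change was 0.81 ± 0.19 (SE). Neither gene overlapped between the groups.

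Man2b1, the α-mannosidase of glycoprotein breakdown, had 19.0, 21.7 and 21.9 CPM with vehicle and 29.9, 32.1 and 39.5 CPM with PSB-KD107, a log2 fold change of 0.70 ± 0.15 (SE). Manba, the β-mannosidase that takes the last mannose of the same chains, had 10.4, 12.0 and 11.1 CPM with vehicle and 23.8, 21.9 and 8.91 CPM with PSB-KD107. PSB-KD107 library 4 was the lowest of all 6 for Manba and the highest for Man2b1, and the log2 fold change of Manba was 0.71 ± 0.37 (SE), or 1.03 without library 4, 0.45 without PSB-KD107 library 1 and 0.55 without library 2.

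Gusb, the β-glucuronidase, had 31.1, 34.2 and 30.1 CPM with vehicle and 59.6, 51.8 and 39.3 CPM with PSB-KD107, and Idua, the α-iduronidase, had 7.09, 6.47 and 6.11 CPM and 9.58, 8.92 and 10.8 CPM. The groups did not overlap for either, and the log2 fold changes were 0.66 ± 0.17 and 0.57 ± 0.17 (SE). Gaa, the most abundant glycosidase per length, had 195, 241 and 253 CPM with vehicle and 291, 351 and 279 CPM with PSB-KD107. It did not overlap, with a smaller log2 fold change of 0.42 ± 0.15 (SE). The remaining glycosidases were close to vehicle. The log2 fold change was 0.20 ± 0.13 for Aga, an amidase of the asparagine-linked sugar counted here with the glycosidases, 0.17 ± 0.18 for the β-galactosidase Glb1 and -0.08 ± 0.14 for the fucosidase Fuca1. Aga is nevertheless among the glycosidases whose groups did not overlap, and the groups of Glb1 and Fuca1 overlapped.

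The 5 sulfatases had a median log2 fold change of 0.20. Arsa, which removes sulfate from the myelin lipid sulfatide (chromosome 15 from 89472476 to 89477425), had 10.4, 8.05 and 7.66 CPM with vehicle and 18.4, 13.5 and 13.7 CPM with PSB-KD107, without overlap. Fitted, the log2 fold change was 0.80 ± 0.21 (SE). Sgsh, which acts on heparan sulfate, also did not overlap, with a log2 fold change of 0.43 ± 0.20 (SE). Arsb, Galns and Ids, which act on dermatan, keratan and heparan sulfates, had log2 fold changes of 0.20 ± 0.25, 0.06 ± 0.17 and -0.12 ± 0.13 (SE), and their groups overlapped. The sulfatases summed to between 91.5 and 96.4 CPM with vehicle and to between 99.7 and 109 CPM with PSB-KD107.

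Among the 8 lipid hydrolases and activators, 3 had groups that did not overlap, all higher, against 9.2% of all genes tested. The median log2 fold change was 0.08. Asah1, the acid ceramidase, had 139, 129 and 126 CPM with vehicle and 185, 221 and 211 CPM with PSB-KD107, so that the lowest treated library was well above vehicle. The fitted log2 fold change was 0.65 ± 0.10 (SE). Psap (ENSMUSG00000004207, chromosome 10 from 60277627 to 60302597) had 726, 645 and 670.5 CPM with vehicle and 1038, 900.3 and 986 CPM with PSB-KD107, a log2 fold change of 0.52 ± 0.11 (SE). Lipa, the acid lipase that frees cholesterol and fatty acids from lipoproteins, differed by little although its groups did not overlap, with a range of 43.8 to 44.0 CPM with vehicle and of 44.7 to 47.1 CPM with PSB-KD107. The log2 fold change of Lipa was 0.05 ± 0.08 (SE).

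Smpd1, the acid sphingomyelinase, had 81.2, 94.5 and 95.8 CPM with vehicle and 83.5, 95.8 and 77.6 CPM with PSB-KD107, with a log2 fold change of -0.08 ± 0.12 (SE). Smpd1 lies on chromosome 7 from 105554360 to 105558389. The thioesterases Ppt1 and Ppt2, which remove fatty acids from proteins, had log2 fold changes of 0.22 and 0.10. Gm2a, the activator that presents GM2 to β-hexosaminidase, and the phospholipase Pla2g15 were lower on average, with log2 fold changes of -0.35 ± 0.26 and -0.47 ± 0.23 (SE). Their groups overlapped, and PSB-KD107 library 4 was the lowest of the 6 for both.

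The proteases were then set beside the glycosidases and sulfatases. The median log2 fold change was 0.65 over 12 tested proteases and 0.62 over 18 glycosidases and sulfatases, a difference of 0.04. This difference was far smaller than its spread over the PSB-KD107 libraries (SD 0.25), and its sign changed with the processing, from -0.21 to 0.11 over all settings tried. At an unadjusted p under 0.05, 5 of 12 proteases and 10 of 18 glycosidases and sulfatases were higher (41.7% and 55.6%), and 0 of either were lower. DESeq2 called 4 and 7 of them, against 2.25% of all genes called higher. Without vehicle library 2 it called 3 and 1 of them, against 178 of 13707 genes. Single proteases were more scattered, from -0.75 to 1.84, than glycosidases and sulfatases, from -0.12 to 1.45.

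Library by library, the median protease lay 0.60, 0.47 and 0.80 above the vehicle mean (log2 scale) in PSB-KD107 libraries 1, 2 and 4, and the median glycosidase or sulfatase 0.59, 0.54 and 0.40 above it. Library 4 was thus the highest for the proteases and the lowest for the sugar and sulfate enzymes. Within the proteases, the papain family lay 0.34, 0.06 and 0.88 above vehicle, and the serine and aspartic enzymes 1.01, 0.93 and 0.74. Sums over each class, which Ctsd weighs on most among the proteases, gave a different order of libraries. Proteases summed to 866, 822 and 825 FPKM in PSB-KD107 libraries 1, 2 and 4, so that library 1 was the highest. By group, proteases summed to 532 ± 31.2 FPKM with vehicle and 838 ± 24.8 FPKM with PSB-KD107, and glycosidases with sulfatases to 164 ± 6.55 and 237 ± 12.4 FPKM (mean ± SD, n = 3), ratios of 1.58 and 1.45, so that the sums set the classes further apart than the medians did. The share of proteases in the summed FPKM of the 40 genes ranged from 48.3% to 51.5% with vehicle and from 53.3% to 53.8% with PSB-KD107, and Ctsd alone held between 24.2% and 29.4%.

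**Figure D3:**
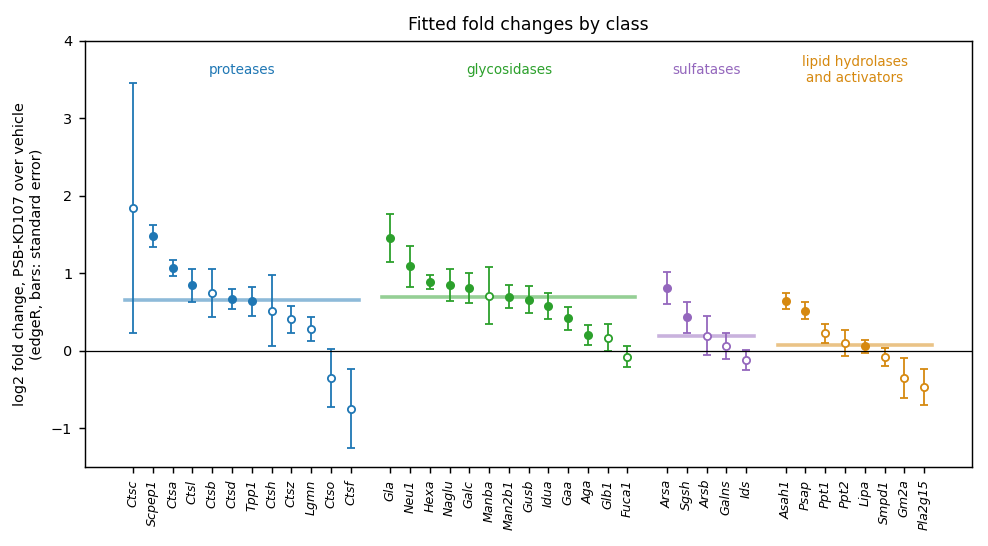
Fitted log2 fold change of PSB-KD107 over vehicle for the 38 tested genes, by class, with standard errors as bars; filled points mark genes whose groups did not overlap, and thick lines the class medians. The medians of proteases (0.65) and glycosidases (0.70) lie close together, and those of sulfatases (0.20) and of lipid hydrolases and activators (0.08) lower.

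The same genes were grouped by what they degrade. Of 9 genes of sphingolipid breakdown (Hexa, Gla, Glb1, Galc, Arsa, Asah1, Smpd1, Psap and Gm2a), 7 had a log2 fold change above 0, 6 had groups that did not overlap and DESeq2 called the same 6, with a median of 0.65. Over all genes tested, 9.2% had groups apart on the higher side and 2.25% were called higher by DESeq2. Without vehicle library 2, DESeq2 called 2 of the 9, Hexa and Asah1, against 178 of 13707 genes. Of 7 genes of glycosaminoglycan breakdown (Gusb, Naglu, Idua, Sgsh, Arsb, Galns and Ids), 6 were above 0, with a median of 0.43, and DESeq2 called 1, Naglu. Of 5 genes of glycoprotein breakdown (Neu1, Man2b1, Manba, Fuca1 and Aga), 4 were above 0 and DESeq2 called 2, with a median of 0.70. Cathepsin A, the sialidase Neu1 and the β-galactosidase Glb1 form one complex in the lysosome, and their log2 fold changes were 1.07, 1.09 and 0.17.

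The promoters of the members were read for the E-box letters CACGTG, the core of the element bound by TFEB and related factors at many lysosomal genes. The motifs were chosen after the expression values were known, and both strands were searched in the 250 bases before and 50 bases after each RefSeq start (GRCm38.p6), where 35 of the 40 members have an entry. CACGTG occurred in 11 members (31.4%), against 8.09% of all genes with an entry and 11.9% of the tested ones. The longer TCACGTG, which holds CACGTG, occurred in 9 members (25.7%), against 4.29% of all and 6.97% of tested genes. The palindrome TCACGTGA occurred in Ctsa, Ctsd and Gla (8.57%, against 1.13% and 2.18%), and with a G before it and a C after it in 0 members (0.37% and 0.808%). The sterol element TCACNCCAC occurred in Ctsc and Ctsf (5.71%, against 1.44% and 1.45%), and TGATGCAA, an element of ATF4, in 0 members (1.03% and 0.71%). A match is a description of letters in this window and not a site shown to be used.

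The stretches around the last TCACGTG before the start of each of the 9 members are shown because proteases, glycosidases and sulfatases alike hold it, with TCACGTG, its reverse complement or the palindrome in capitals, each 5′ to 3′ on the strand of the gene.
Ctsa (chr2:164833750-164833772, plus strand): gagcaaactgTCACGTGAtgcag
Ctsd (chr7:142387908-142387936, minus strand): cgcccgcgtcTCACGTGAcccgttgaggg
Gla (chrX:134601182-134601210, minus strand): gagatctcggTCACGTGAgcaactctcgg
Naglu (chr11:101070009-101070037, plus strand): caaccttcaggTCACGTGgcccgaggtcg
Arsa (chr15:89477425-89477452, minus strand): tcaactcagtgTCACGTGttgtctgctc
Sgsh (chr11:119355522-119355550, minus strand): ggcctgccgtgCACGTGAccgtggggagc
Gaa (chr11:119267782-119267868, plus strand): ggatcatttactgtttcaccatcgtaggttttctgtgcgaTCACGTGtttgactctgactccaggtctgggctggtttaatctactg
Glb1 (chr9:114400989-114401075, plus strand): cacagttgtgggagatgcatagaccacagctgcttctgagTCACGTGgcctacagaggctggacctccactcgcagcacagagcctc
Lgmn (chr12:102439096-102439182, minus strand): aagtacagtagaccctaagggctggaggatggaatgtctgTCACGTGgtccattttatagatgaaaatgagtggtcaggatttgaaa
In the first 6 of these the stretch overlaps an annotated exon and is shown short, and in the last 3 it does not.

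Members with the element were not all among the higher genes. Ctsa, Gla, Naglu and Arsa hold it and had log2 fold changes of 1.07, 1.45, 0.85 and 0.80, while Glb1 and Lgmn hold it and had 0.17 and 0.28. Scpep1, Hexa and Neu1 have an entry without TCACGTG and had log2 fold changes of 1.49, 0.89 and 1.09. The median was 0.67 over the 9 members with TCACGTG and 0.46 over the 24 tested members with an entry but without it. Over all tested genes with an entry these medians were 0.10 and -0.01. No p is attached to these values.

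Other genes of the same compartment were read from lists drawn up for this comparison. Of 21 further lysosomal enzymes reported here, a list shortened after its values were seen, 17 were tested. An unadjusted p under 0.05 was found for 2 on the higher side (Dpp7 and Creg1) and for 1 on the lower (Hyal2), against 6.47% and 2.93% of all genes tested. DESeq2 called 1, Dpp7, against 2.25% of all genes called higher, and the median log2 fold change was 0.0034 over the 17. Dpp7, a dipeptidyl peptidase, had 9.62, 10.3 and 9.40 CPM with vehicle and 32.7, 28.0 and 18.4 CPM with PSB-KD107, a log2 fold change of 1.43 ± 0.23 (SE), for which edgeR gave an adjusted p of 0.184. Creg1, a lysosomal glycoprotein, had 17.9, 22.7 and 23.2 CPM with vehicle and 47.4, 33.8 and 28.2 CPM with PSB-KD107, and its groups were apart, with a log2 fold change of 0.78 ± 0.22 (SE). Hyal2, a hyaluronidase anchored at the cell surface, had 41.4, 51.6 and 46.6 CPM with vehicle and 31.1, 37.9 and 26.7 CPM with PSB-KD107. All treated libraries were below vehicle for Hyal2, at a log2 fold change of -0.54 ± 0.16 (SE).

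Of 17 genes that tag hydrolases or carry them to the lysosome, 4 had an unadjusted p under 0.05 on the higher side and 0 on the lower. Over all genes tested these shares were 6.47% and 2.93%. DESeq2 called 3, the retromer genes Vps26a, Vps29 and Vps35, against 2.25% of all genes called higher. Retromer returns sorting receptors from endosomes to the Golgi. Vps29 had 58.6, 59.7 and 62.9 CPM with vehicle and 95.3, 91.2 and 84.1 CPM with PSB-KD107, without overlap, and its log2 fold change was 0.58 ± 0.09 (SE), for which edgeR gave an adjusted p of 0.184. For Vps26a and Vps35 it was 0.44 ± 0.10 and 0.42 ± 0.09. Scarb2, the remaining gene with a p under 0.05, had 114, 100.3 and 96.7 CPM with vehicle and 141, 136 and 175 CPM with PSB-KD107. Its groups did not overlap, and its log2 fold change was 0.54 ± 0.13 (SE). The mannose 6-phosphate receptors M6pr and Igf2r had log2 fold changes of -0.08 and 0.04, the phosphotransferase genes Gnptab and Gnptg of 0.27 and 0.23, and Sumf1, which activates all sulfatases, of -0.05 ± 0.28 (SE). Of the receptors, the phosphotransferase genes and Sumf1, only Gnptab had groups that did not overlap.

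Genes listed as cathepsin inhibitors were read as well, and some, such as Serpinb6a, act on proteases outside the 40 genes. Of 8 genes, 7 were tested and all 7 had a log2 fold change above 0, against 49.9% of all genes tested. Of the 7, 2 were higher at an unadjusted p under 0.05 and 0 were called by DESeq2, against 6.47% and 2.25% of all genes. Serpinb6a, a cytosolic serpin that inhibits serine proteases such as cathepsin G, had 173, 137 and 115 CPM with vehicle and 269, 185 and 271 CPM with PSB-KD107 (log2 fold change 0.77 ± 0.21, SE). Cstb, the cytosolic inhibitor cystatin B, had 33.3, 39.5 and 39.7 CPM and 70.2, 59.9 and 43.7 CPM (log2 fold change 0.63 ± 0.19, SE). Cst6, a secreted cystatin at low level, had a log2 fold change of 1.43 ± 0.65 (SE) and overlapping groups. Cst3, the abundant secreted cystatin C, had one of 0.17.

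**Figure D4:**
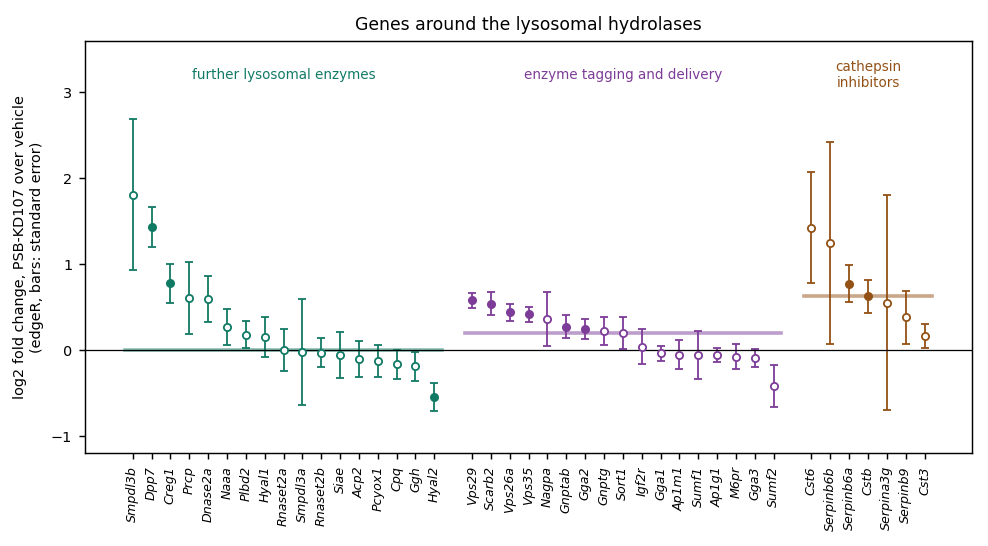
Fitted log2 fold change of PSB-KD107 over vehicle, with standard errors, for the tested genes of 3 further lists; filled points mark genes whose groups did not overlap and thick lines the medians (0.0034, 0.20 and 0.63). Dpp7 and the retromer genes Vps26a, Vps29 and Vps35 lie above 0 by more than their errors, and Hyal2 lies below.

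Because libraries of different groups resembled each other, the members were also compared within the libraries most alike, an arrangement chosen after the data were seen. PSB-KD107 library 1 was above vehicle library 1 in 30 of 38 members, with a median log2 ratio of 0.42. PSB-KD107 library 2 was above the mean of vehicle libraries 2 and 4 in 30 members, with a median of 0.35. PSB-KD107 library 4, which resembled none, was above the mean of all vehicle libraries in 30 members, with a median of 0.45. In the first comparison and the second together 29 members (76.3%) were above 0, against 35.1% of all genes tested, and in all comparisons 26 (68.4%), against 22.3%. For the papain family alone, the medians were 0.27, -0.10 and 0.84.

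Some of these genes share sequence with a neighbour. In 15 members an annotated exon overlaps an exon of another gene, and the use of strand in counting is not given in the sources used here. The overlapping gene had more counts than the member for Idua (Dgkq) and Ppt1 (Cap1), and fewer than the member for Ctsa (Pltp and Neurl2), Ctsb (Fdft1), Ctsz (Nelfcd), Hexa (Tmem202), Glb1 (Tmppe) and Sgsh (Card14). Ctsd shares 808 exon bases with Gm49369, and Ctsl shares 395 with Gm49230, both on the same strand. These neighbours have no counts here, so their part in the levels of Ctsd and Ctsl is not known. Levels of these genes may hold reads of the neighbour.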

How the data were processed

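Polyadenylated RNA from 6 cultures was sequenced on an Illumina NovaSeq as read pairs. Alignment was to mm10 with STAR, and the authors deposited raw counts per gene, without normalization. The counting program, its annotation and its use of strand are not given in the sources used here. Positions and exon lengths were taken from GENCODE M21 (GRCm38). The members and lists were chosen with earlier results of these data known. Libraries numbered 4 in the table were assigned to their group by name only.

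In R 4.3.3, edgeR 4.0.16 was used with filterByExpr, TMM factors and the quasi-likelihood test, adjusted by the Benjamini-Hochberg method over 14165 genes, and standard errors were taken as the absolute log2 fold change over the root of F. CPM were TMM-normalized, and FPKM were CPM over kilobases of exon. DESeq2 1.42.0 was an alternative. Log2 ratios of CPM used an offset of 0.1. Values per library were given for members with a mean of at least 1 CPM and an absolute log2 fold change of at least 0.5, for the 10 highest per length, and for related pairs. Those of Ctso were added after its values were seen. From each other list the 3 genes with the smallest p were named, and further ones were chosen after their values were seen. Some genes of the list of further lysosomal enzymes are not reported here, so its counts and median cover the remaining genes. Scripts were tested on simulated counts, and plots were drawn in Python 3.11.15 with matplotlib 3.10.9. Other settings were RLE factors, no filter, a mean of at least 1 FPKM, a replicate block, Aga left out of the glycosidases, and each library left out.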

Additional observations from a re-analysis of the deposited data

How the results depend on the processing

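With edgeR, 0 members were called under RLE factors, the FPKM filter, the block over all 6 libraries or any library left out. Without the filter on low counts 1 member was called (Scpep1), of 8 genes called among 24186. DESeq2 called 13 members, of 408 genes called among 13776. DESeq2 called 11, 5 and 6 members without vehicle library 1, 2 and 4, and 8, 13 and 15 without PSB-KD107 library 1, 2 and 4. The 15 include Ctso, which was lower. Over all genes tested, the first of these fits called 599 of 14046, 178 of 13707 and 160 of 14632. Those without a PSB-KD107 library called 283 of 13119, 768 of 14620 and 674 of 13246. Ctsa, Ctsd, Scpep1, Hexa and Asah1 were called in all 6 fits. Whether libraries of the same number share a mouse is not given. Deviations from the group means correlated at 0.62 between the libraries numbered 1, at 0.59 between those numbered 2 and at -0.13 between those numbered 4. Between vehicle library 4 and PSB-KD107 library 2 the correlation was 0.67. With the number as a replicate block, on 4 libraries (1 and 2 of each group), edgeR called 22 members (Ctsf and Ctso lower). This fit called 2456 of all 14400 genes tested in it. In it, 4 members were lower at an unadjusted p under 0.05, and the median log2 fold change was 0.39 for all members and 0.37 for proteases. The same libraries with no block, added after seeing the data, gave 0 members and 0 of 14400 genes called, 1 member lower, and medians of 0.39 and 0.39. The block over all 6 libraries gave 1 lower and a median of 0.47. The cause of these shifts was not tested.

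With each library left out, 0 to 2 members were lower at an unadjusted p under 0.05, and medians ranged from 0.45 to 0.58 for all members, from 0.42 to 0.70 for proteases, from 0.47 to 0.63 for glycosidases and sulfatases and from 0.02 to 0.15 for lipid hydrolases and activators. The difference between proteases and glycosidases with sulfatases was below 0 with no filter (-0.04), with Aga left out of the glycosidases (-0.0064), without vehicle library 2 (-0.01), without PSB-KD107 library 4 (-0.11), with the block on 4 libraries (-0.21) and without it (-0.19). Ctsc was below 0 with the block on 4 libraries (-0.41), on them without it (-0.58) and without PSB-KD107 library 4 (-0.72, DESeq2 -0.73), and reached 2.50 without vehicle library 2. Ctsh was -0.13 and -0.12 and Smpd1 0.030 and 0.029 on the 4 libraries with and without the block. With 3 libraries a group, single-gene changes near the spread between libraries could not be resolved.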
